A study of Mus musculus with 6 samples.

Results

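The granins and the membrane proteins of dense-core granules were examined in mGLUTag cells, an immortalized murine line that secretes the incretin GLP-1 and serves as a model of the intestinal L-cell. The group holds 7 genes, CHGA, CHGB, SCG2, SCG3, VGF, PTPRN and PTPRN2. Its members were found as all probes of the array table that carry one of these symbols, which gave 15 of 45281 probes, or 7 of 30854 distinct symbols. The cells are 1 male line, and no genotype or agent separated the groups. In both groups the cells had been starved in low serum, synchronized with forskolin, which raises cAMP, and returned to growth medium. Total RNA was taken at 4 h (n = 3) and at 16 h (n = 3), the study's peak and trough times of the clock gene Arntl. Each of the 6 samples was hybridized to 1 mouse Illumina BeadChip array. The labels do not say whether samples of 1 time point came from separate cultures, so the p-values measure the spread between these samples, which may be technical.

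L-cells store their peptide hormones in dense-core granules. Granins are acidic, calcium-binding proteins of the regulated secretory pathway that aggregate in the trans-Golgi network, help to form the granule and are cut into smaller peptides inside it. The phosphatase-like proteins PTPRN (IA-2) and PTPRN2 (phogrin) span the granule membrane and are needed for normal granule number and content in neuroendocrine cells. Several granin promoters contain a cAMP response element, the motif bound by CREB, and these genes are classic targets of cAMP signalling.

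Because the cells were synchronized with an agent that raises cAMP, the promoters of the members were searched for that element. RefSeq promoter sequences (GRCm38.p6, 250 bases before to 50 bases after the annotated start) were given for 6 of the 7 genes, with 2 promoters for PTPRN. The full motif, TGACGTCA, which reads the same on both strands, was found in 588 of 32851 promoters of this length (1.79%). Its 5-letter core, TGACG, searched on either strand and contained in every full motif, was found in 6837 (20.8%). Counted by gene, with a match in any of its promoters, the full motif was present for 2 of the 6 members and the core for 5 of the 6. The shares above count promoters instead, of which these members had 7. The 120 bases just upstream of the start are shown for those 5 members, on the strand of the gene, with the letters of the full motif or, where it is absent, of the core in capitals.
Chga: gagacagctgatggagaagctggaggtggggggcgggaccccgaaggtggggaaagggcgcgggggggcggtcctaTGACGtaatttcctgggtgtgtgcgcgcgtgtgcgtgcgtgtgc
Chgb: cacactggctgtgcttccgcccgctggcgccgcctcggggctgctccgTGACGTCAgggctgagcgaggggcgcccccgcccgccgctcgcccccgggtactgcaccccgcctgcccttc
Scg2: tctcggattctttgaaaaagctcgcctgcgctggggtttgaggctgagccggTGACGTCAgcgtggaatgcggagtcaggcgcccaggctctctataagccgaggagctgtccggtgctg
Scg3: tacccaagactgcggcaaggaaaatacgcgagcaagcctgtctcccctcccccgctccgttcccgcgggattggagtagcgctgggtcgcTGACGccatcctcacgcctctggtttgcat
Ptprn: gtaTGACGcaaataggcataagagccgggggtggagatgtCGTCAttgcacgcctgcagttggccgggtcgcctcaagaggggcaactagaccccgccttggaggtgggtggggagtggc
These windows lie at chr12:102554821-102554940 (plus strand) for Chga, chr2:132781522-132781641 (plus strand) for Chgb, chr1:79440027-79440146 (minus strand) for Scg2, chr9:75684057-75684176 (minus strand) for Scg3 and chr1:75264209-75264328 (minus strand) for Ptprn, all in GRCm38.p6 and ending at the base before the annotated start. The full motif began 72 bases before the start in Chgb and 68 bases before it in Scg2. The core began 44 bases before the start in Chga and 30 bases before it in Scg3. In the first promoter of Ptprn the core began 117 bases before the start and again, on the opposite strand, 80 bases before it. No match lay in the second Ptprn promoter or in that of Ptprn2. A match describes the letters of the window only, and binding was not measured here.

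The deposited intensities differed between arrays before any gene was compared. Mean intensity over all probes lay between 291 and 354 units on the 4 h arrays and between 216 and 246 units on the 16 h arrays. A probe was taken as detected on an array when it exceeded a noise limit, the 99th percentile of the sizes of the negative values on that array (9.2 to 14 units). Of the 14941 probes detected on all 6 arrays, 98.2% were brighter on average at 4 h, and their median log2 ratio was 0.55 (1.46-fold). Changes were therefore tested on log2 intensities after quantile normalization between arrays, which reports each probe relative to the others and hides any change that most transcripts share. Bulk RNA cannot tell fewer cells of a type from less RNA per cell. The arrays also differed in the signal of the 3 probes for 18S ribosomal RNA, whose mean normalized log2 intensity was 8.50, 6.91 and 10.57 in replicates 1 to 3 at 4 h and 9.24, 7.71 and 7.02 at 16 h. Replicates 1 and 3 at 4 h and replicate 1 at 16 h lay above the median, so that this separation crossed the time points.

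The L-cell label was checked against 12 marker genes, of which 10 were detected on 3 or more arrays. Gcg, which encodes proglucagon, was within the top 0.208% of all probes, whereas Pyy was detected on no array. Of the markers of other cell types, 1 of 4 measured for enterocytes, 1 of 4 for goblet cells, 0 of 3 for Paneth cells, 1 of 5 for fibroblasts and 0 of 6 for immune cells were detected on 3 or more arrays. The 3 detected genes were Slc5a1, Tff3 and Col1a1, of which Tff3 was the brightest, at 765 ± 122 units at 4 h and 647 ± 124 at 16 h (SD, n = 3 each). The summed intensity of the immune markers was between -0.3 and 4.2 units at 4 h and between -4.0 and 7.7 at 16 h.

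Nearly the whole granin group was detected, and its probes ranged from among the brightest of the array to the noise limit. Of the 15 probes, 9 were detected on all 6 arrays, 2 on some arrays and 4 on none. Under the listed symbols, a probe detected on all arrays was found for 6 of the 7 genes, the exception being PTPRN2. By mean normalized intensity, the brightest probe of each gene ranked within the top 1.43% of all probes for CHGB, 4.43% for SCG3, 5.27% for VGF, 8.15% for SCG2, 8.75% for CHGA, 20.1% for PTPRN and 36.8% for PTPRN2. These ranks describe the brightness of probes, which bind with different efficiency, and are not an order of transcript amounts. Over the 6 arrays the rank of the CHGB probe stayed between 494 and 760. The SCG3 probe ranged from 1444 to 2466 and the VGF probe from 2040 to 2885, so that these neighbours overlapped. The SCG2 probe (3209 to 4077) and the CHGA probe (3444 to 4732) overlapped as well, whereas the PTPRN probe (8208 to 10130) and the PTPRN2 probe (15307 to 19254) overlapped with no neighbour.

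**Figure D1:**
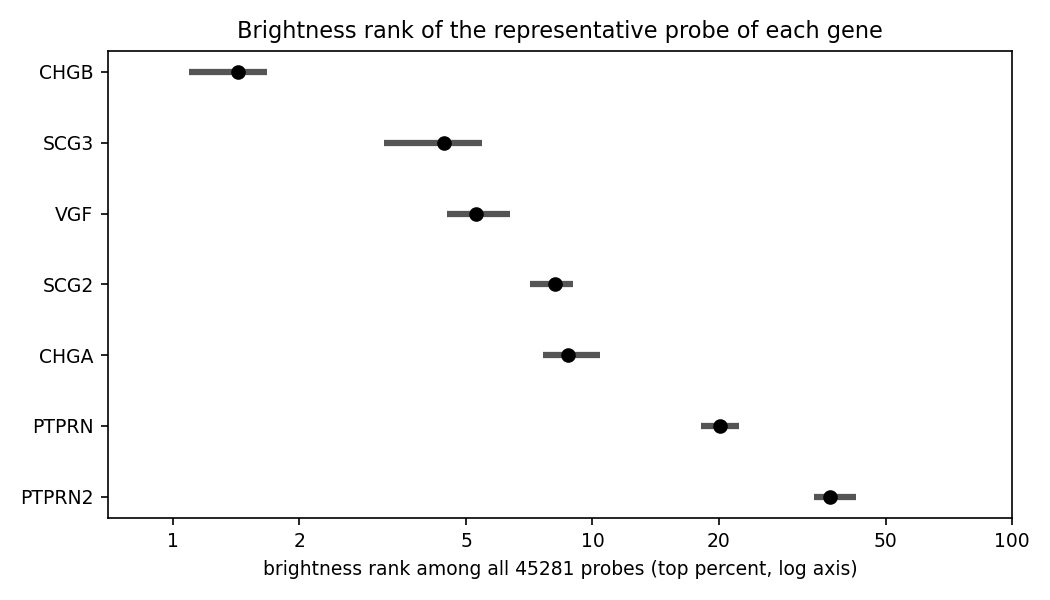
Brightness rank of the representative probe of each gene among all 45281 probes, as top percent on a log axis; points give the rank of the mean normalized log2 intensity and bars the lowest and highest rank over the 6 arrays. CHGB lies alone at 1.43%, the SCG3 and VGF bars overlap, as do those of SCG2 and CHGA, and PTPRN and PTPRN2 stand apart at 20.1% and 36.8%.

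None of the 7 genes passed the test between 4 h and 16 h. By limma with Benjamini-Hochberg adjustment, 0 of the 15 member probes were called, against 4 of all 45281 (0.00883%). An unadjusted p under 0.05 was reached by 1 member probe, that of SCG3, against 5.42% of all probes. With replicate number as a block, a background offset of 16 or no background correction, 0 member probes reached such a p. Separation of the 4 h from the 16 h values after normalization, with no overlap, was seen for 0 of the 9 member probes detected on all arrays, against 11.6% of the 14941 probes detected on all arrays. Among the 9 probes, the log2 change from 16 h to 4 h was above 0 for 5 and below 0 for 4. The median over the 6 genes with such a probe was 0.08, against 0.00 over all 14941, and the median size of the change was 0.11 against 0.09. The genes follow in the order of their roles, granule content first and membrane proteins last, each with the deposited intensity of every array followed by the normalized comparison.

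**Figure D2:**
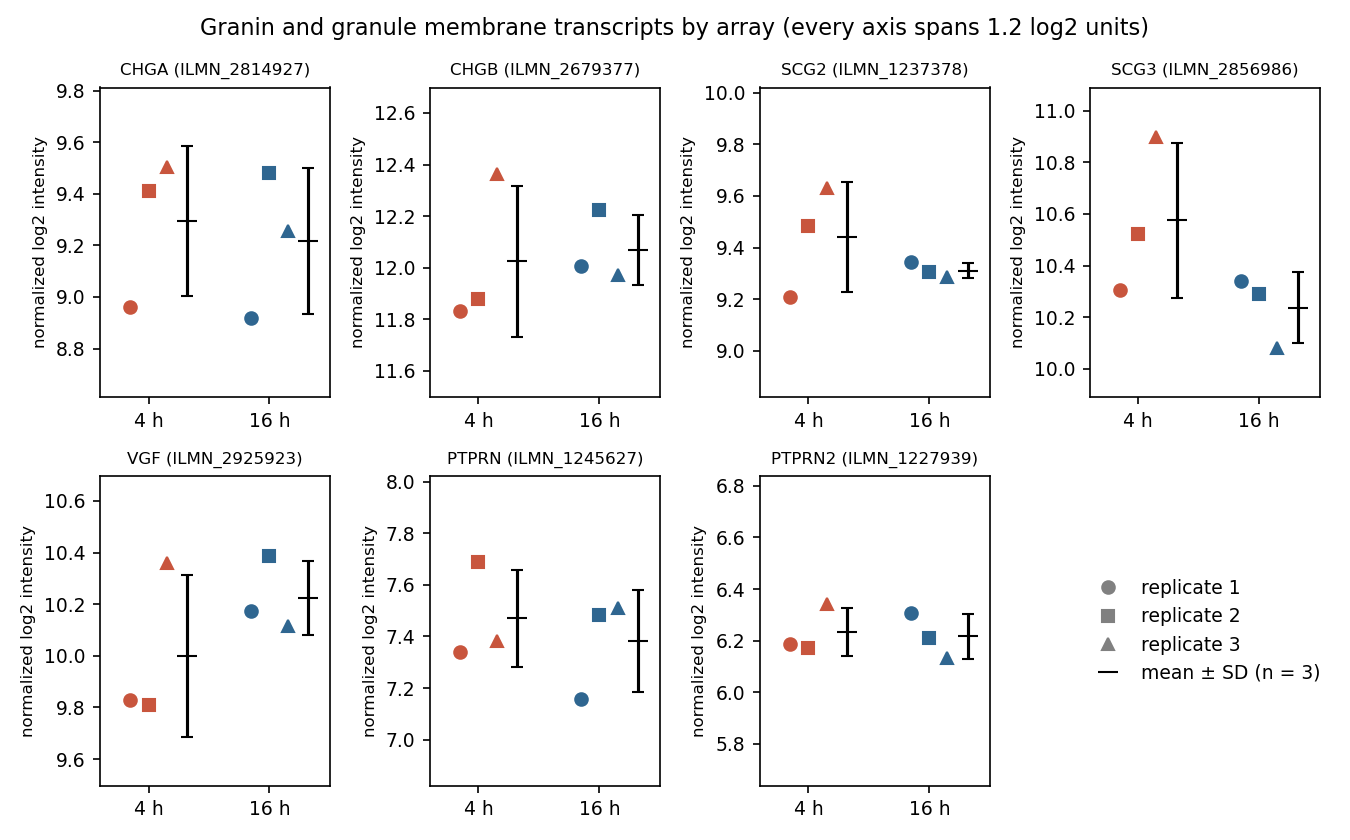
Normalized log2 intensity of the representative probe of each gene at 4 h and 16 h, with 1 symbol per array and the mean ± SD (n = 3) beside them; every vertical axis spans the same log2 range. The values of the time points overlap for all 7 genes, and 4 h replicate 3 is the highest 4 h value for CHGA, CHGB, SCG2, SCG3, VGF and PTPRN2.

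CHGA encodes chromogranin A, the founding granin, from which pancreastatin and vasostatins are cut. It had 3 probes, all detected on every array. The brightest, ILMN_2814927, read 559.5, 636.5 and 833.8 units in replicates 1 to 3 at 4 h and 355.9, 581.5 and 389.7 at 16 h. Replicate 2 at 16 h was brighter than replicate 1 at 4 h, so the time points overlapped. After normalization the log2 intensity was 9.29 ± 0.29 (SD, n = 3) at 4 h and 9.22 ± 0.28 at 16 h. The log2 change was 0.07 (SE 0.17, 95% interval -0.31 to 0.46, adjusted p = 0.983), which was smaller than the spread between arrays. It was 0.18 with the 18S split as a block, and -0.032 without 4 h replicate 3 and -0.074 without 16 h replicate 1.

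CHGB encodes chromogranin B, a granin that shares with CHGA a disulphide-bonded loop used in sorting to the granule. Its single probe, ILMN_2679377, read 4518.4, 4012.7 and 5889.9 units at 4 h and 3520.8, 4123.2 and 3052.9 at 16 h. Replicate 2 at 16 h exceeded replicate 2 at 4 h. The normalized log2 intensity was 12.02 ± 0.29 at 4 h and 12.07 ± 0.14 at 16 h (SD, n = 3 each). The log2 change was -0.04 (SE 0.14, 95% interval -0.36 to 0.27, adjusted p = 0.989), and its sign turned when any of 3 arrays was left out (0.052 without 4 h replicate 1, 0.032 without 4 h replicate 2 and 0.035 without 16 h replicate 2).

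SCG2 encodes secretogranin II, the precursor of secretoneurin. Of its 2 probes, ILMN_1237378 was detected on all arrays and read 678.9, 670.5 and 911.7 units at 4 h and 498.4, 512.5 and 400.7 at 16 h. As deposited, every 4 h value was above every 16 h value. After normalization the groups overlapped, at 9.44 ± 0.21 at 4 h and 9.31 ± 0.03 at 16 h (SD, n = 3 each), since replicate 1 at 4 h (9.21) fell below all 16 h arrays (9.28 to 9.34). The log2 change was 0.13 (SE 0.10, 95% interval -0.10 to 0.36, adjusted p = 0.957). It was 0.032 without 4 h replicate 3 and 0.25 without 4 h replicate 1. The other SCG2 probe, ILMN_2492442, was detected on no array, with values between -9.2 and 3.5 units.

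SCG3 encodes secretogranin III, which binds cholesterol-rich granule membrane and holds CHGA aggregates there. Its single probe, ILMN_2856986, read 1513.6, 1472.8 and 2230.3 units at 4 h and 1050.0, 1059.4 and 740.8 at 16 h. The deposited values did not overlap. The normalized log2 intensity was 10.31, 10.52 and 10.90 at 4 h and 10.34, 10.29 and 10.08 at 16 h, so that replicate 1 at 4 h lay below replicate 1 at 16 h. The log2 change of 0.34 (SE 0.14, 95% interval 0.02 to 0.66, or 1.27-fold) was the largest among the representative probes. Its unadjusted limma p was 0.0404 and its adjusted p 0.901, so it did not pass, and an exact two-sided permutation test of the 6 arrays gave p = 0.2, where 3 arrays against 3 cannot give less than 0.1. Without 4 h replicate 3 the change was 0.18 and the unadjusted limma p 0.13. Without 4 h replicate 1 they were 0.47 and 0.0066 (adjusted p = 0.782), and without 16 h replicate 1 they were 0.39 and 0.040. Leaving out 4 h replicate 2, 16 h replicate 2 or 16 h replicate 3 gave an unadjusted p of 0.061, 0.063 and 0.15. With all arrays, the unadjusted p was 0.061 with replicate number as a block and 0.071 with the 18S split as a block. It was 0.053 with a background offset of 16 and 0.13 with no background correction. Cyclic loess gave 0.044, linear scaling 0.046 and a trend and robust variance fit 0.034.

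VGF encodes a neurotrophin-inducible granin-like protein that is cut into peptides such as TLQP-21. Its brighter probe, ILMN_2925923, read 1064.9, 862.8 and 1546.1 units at 4 h and 928.7, 1132.0 and 761.6 at 16 h. Replicate 3 at 4 h was the brightest array and the others overlapped. The normalized log2 intensity was 9.83, 9.81 and 10.36 at 4 h and 10.17, 10.39 and 10.11 at 16 h. This gave a log2 change of -0.22 (SE 0.15, 95% interval -0.56 to 0.11, adjusted p = 0.946), which was -0.41 (adjusted p = 0.498) without 4 h replicate 3, -0.13 without 4 h replicate 2, -0.14 without 4 h replicate 1 and -0.15 without 16 h replicate 2. When both VGF probes were averaged the change was -0.058. Among the representative probes of the 6 genes detected on all arrays, the change of -0.22 was the furthest below 0.

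PTPRN and PTPRN2, the membrane proteins, had the dimmest representative probes of the 7. Of the 3 probes of PTPRN, ILMN_1245627 read 135.2, 140.3 and 132.0 units at 4 h and 69.3, 99.6 and 81.6 at 16 h. The deposited 4 h values all exceeded the 16 h values. After normalization the log2 intensity was 7.47 ± 0.19 at 4 h and 7.38 ± 0.20 at 16 h (SD, n = 3 each), with a log2 change of 0.09 (SE 0.12, 95% interval -0.19 to 0.36, adjusted p = 0.974). The change was 0.20 (SE 0.07, adjusted p = 0.738, with an unadjusted p under 0.05) with the 18S split as a block and 0.033 when the 2 detected PTPRN probes were averaged, and it fell below 0 without 4 h replicate 2 (-0.022) or 16 h replicate 1 (-0.027). For PTPRN2, ILMN_1227939 read 14.3, 9.1 and 22.2 units at 4 h and 14.8, 10.2 and 6.2 at 16 h, and was detected on 2 arrays at 4 h and on 1 at 16 h. Normalized, it changed by 0.02 on the log2 scale (SE 0.08, adjusted p = 0.994), with values near the noise limit. The change was -0.027 with linear scaling and -0.020 with the 18S split as a block. Leaving out an array gave values from -0.034 (without 4 h replicate 3) to 0.065 (without 16 h replicate 1). The remaining PTPRN2 probes, ILMN_1226327 and ILMN_1222290, were detected on no array, with values between -8.7 and 4.6 units. RefSeq lists 4930425H11RIK as a synonym of Ptprn2, and the probe under that name (ILMN_2481763), which the symbol rule does not count, was detected on all 6 arrays. It read 101.5, 98.5 and 51.3 units at 4 h and 33.2, 61 and 48.4 at 16 h, a difference of 0.12 on the normalized log2 scale (SE 0.17, adjusted p = 0.974). A probe named CGB, a RefSeq synonym of Chgb, did not exceed 2 units on any array.

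The agreement between probes of 1 gene was examined next, as the difference between their normalized log2 values on each array, over 5 pairs of probes. The probe sequences were not used here, and which transcripts each probe binds was not examined. The PTPRN probes ILMN_1245627 and ILMN_2629455 agreed most closely. Their difference lay between -0.07 and 0.26 over the 6 arrays. ILMN_2629455 read 101.0, 139.1 and 127.3 units at 4 h and 75.6, 99 and 78.8 at 16 h, with a log2 change of -0.02 (SE 0.14, adjusted p = 0.997). That change ranged from -0.18 without 4 h replicate 2 to 0.12 without 4 h replicate 1, and was 0.097 with the 18S split as a block. The third PTPRN probe, ILMN_1245729, was detected on no array, with values between -0.6 and 10.5 units.

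The CHGA probes disagreed. ILMN_2814927 and ILMN_2716146 kept the same order on all arrays, with a difference between 0.17 and 0.68. ILMN_2723763 did not follow them, as it was brighter than ILMN_2814927 by 0.16, 0.28 and 0.42 on 3 arrays and dimmer by 0.88, 0.69 and 0.72 on the other 3. It read 635.4, 306.7 and 1021.9 units at 4 h and 494.9, 336.8 and 215.2 at 16 h. The 3 arrays on which it was brighter were 4 h replicates 1 and 3 and 16 h replicate 1, which are those with the higher 18S signal. Its normalized log2 intensity was 9.41 ± 0.34 on these and 8.62 ± 0.15 on the others (SD, n = 3 each), with no overlap. The same split gave 9.13 ± 0.33 and 9.38 ± 0.11 for ILMN_2814927 and 8.73 ± 0.45 and 8.83 ± 0.15 for ILMN_2716146, both of which overlapped. Of the 9 member probes detected on all arrays, 3 did not overlap between these sets of arrays, against 20.2% of the 14941 probes. The others were both PTPRN probes, which were lower on the arrays with more 18S signal, at 7.29 ± 0.12 against 7.56 ± 0.11 for ILMN_1245627 and at 7.22 ± 0.13 against 7.54 ± 0.12 for ILMN_2629455. The part of 18S signal in these differences was not tested. The set with more 18S signal holds 2 of the 4 h arrays and 1 of the 16 h arrays. Between 4 h and 16 h, the difference of ILMN_2814927 minus ILMN_2723763 changed by -0.18 and that of ILMN_2723763 minus ILMN_2716146 by 0.30, and within each time point both differences took either sign. The log2 change of ILMN_2723763 itself was 0.26 (SE 0.29, 95% interval -0.41 to 0.93, adjusted p = 0.966). With the 18S split as a block it was -0.0072 (SE 0.17, adjusted p = 0.999), and it ranged from -0.061 without 4 h replicate 3 to 0.56 without 4 h replicate 2. That of ILMN_2716146 was -0.05 (SE 0.19, adjusted p = 0.993), with a range from -0.25 without 4 h replicate 3 to 0.19 without 4 h replicate 1.

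**Figure D3:**
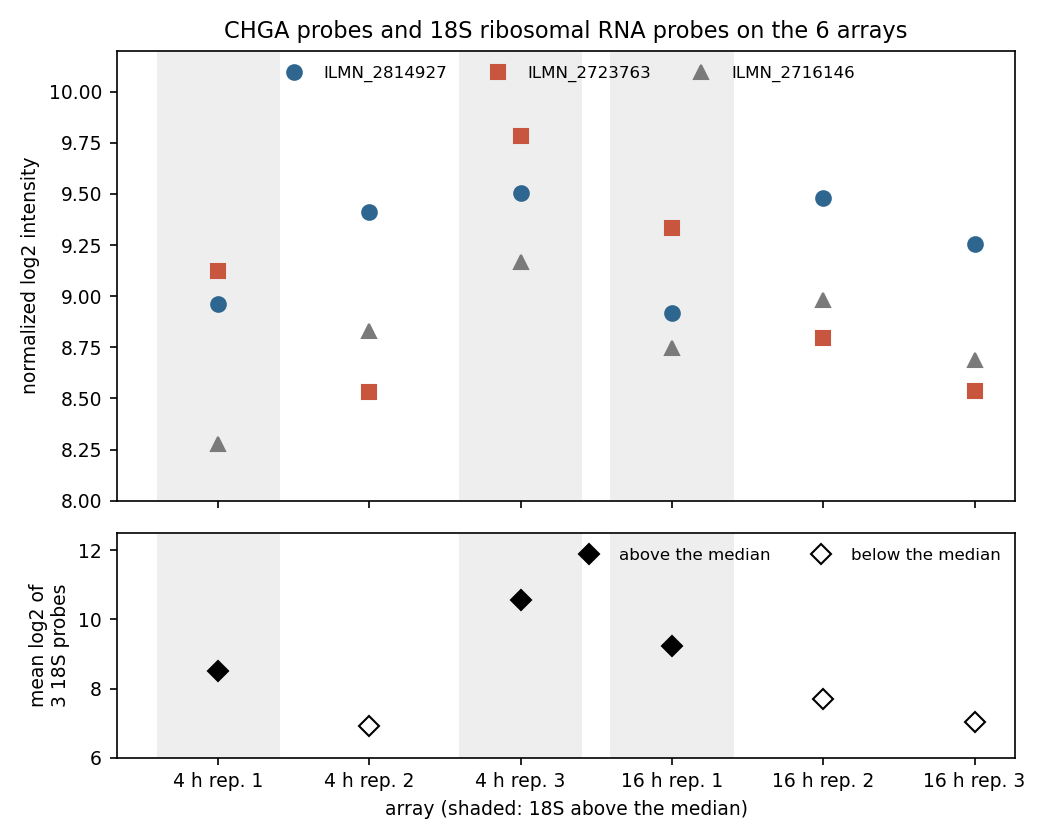
Normalized log2 intensity of the 3 CHGA probes (top) and mean of the 3 18S ribosomal RNA probes (bottom) on each array, with the arrays above the median 18S signal shaded. ILMN_2723763 (squares) lies above ILMN_2814927 (circles) on the 3 shaded arrays and below it on the other 3, while ILMN_2716146 (triangles) stays below ILMN_2814927 on all 6.

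The VGF probes differed widely in brightness on every array. The dimmer, ILMN_1232310, read 34.9, 22.3 and 78.6 units at 4 h and 31.8, 35.7 and 6.9 at 16 h, and was detected on all 3 arrays at 4 h and on 2 at 16 h. The log2 change was 0.11 (SE 0.18, adjusted p = 0.979) and turned sign without 4 h replicate 3 (-0.063) or 16 h replicate 3 (-0.066), so that its direction against the brighter probe is not settled. No value or test is given for the log2 difference between the probes. The offset of 50 added before the log2 was of the size of the dimmer probe's intensities and narrows that difference. The dimmer probe was also below the noise limit on 16 h replicate 3.

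On the deposited scale the same probes gave a different picture. All 9 member probes detected on all arrays had a higher mean at 4 h, as did 98.2% of the 14941 probes. The values did not overlap and were higher at 4 h for 4 of the 9 probes (SCG2, SCG3 and both probes of PTPRN), against 49.2% of the 14941 probes detected on all arrays. The median log2 ratio over the 6 genes was 0.65, against 0.55 for all those probes. The ratio of deposited means was 1.83-fold for SCG3, 1.63-fold for PTPRN, 1.60-fold for SCG2, 1.53-fold for CHGA, 1.35-fold for CHGB and 1.23-fold for VGF, where the median of the 14941 probes was 1.46-fold. When the arrays were not normalized to each other, limma called 2308 of all probes (5.10%), all of them higher at 4 h, and among the members called PTPRN (0.47, adjusted p = 0.0388) and SCG2 (0.62, adjusted p = 0.0484) but not SCG3 (0.83, adjusted p = 0.0514). The median change of all 14941 probes was 0.39 in that fit. Whether the brighter 4 h arrays reflect more RNA per cell or the handling of the arrays cannot be told apart with these data.

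**Figure D4:**
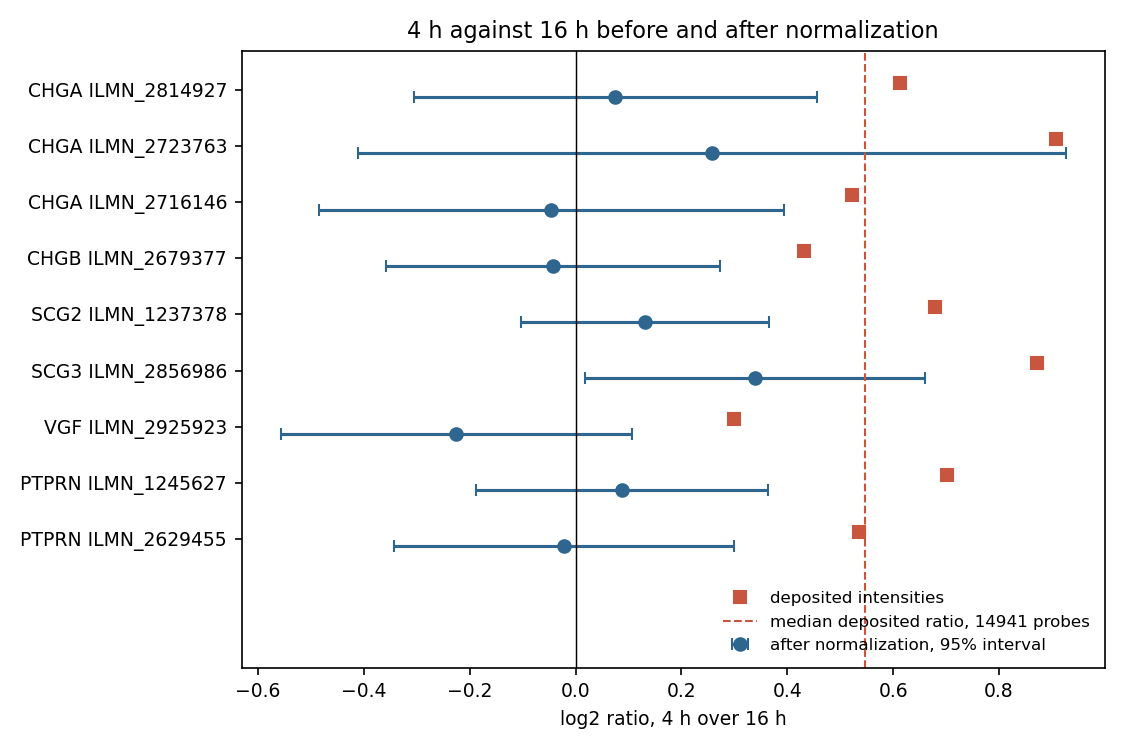
Log2 ratio of 4 h over 16 h for the 9 member probes detected on all arrays, from the deposited intensities (squares) and after normalization (circles, with 95% intervals from limma); the dashed line marks the median deposited ratio of 14941 probes, 0.55. The squares lie between 0.30 (VGF) and 0.91 (CHGA ILMN_2723763), and after normalization 8 of the 9 intervals contain 0, the exception being SCG3.

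The mean level of the members varied more among the 4 h arrays than between the time points. Replicate 3 held the highest 4 h value for 7 of the 9 member probes detected on all arrays, against 38.3% of all 14941 probes, and replicate 1 the lowest for 7 of the 9, against 36.2%. The mean of the 7 representative probes, each centred on its own mean, was -0.17, 0.02 and 0.23 in replicates 1 to 3 at 4 h. At 16 h it was -0.09, 0.07 and -0.07. It includes the PTPRN2 probe, which was near the noise limit and was detected on 3 arrays only. The 16 h arrays thus lay within the range of the 4 h arrays. Of 14931 other probes detected on all arrays, 269 correlated with this mean by a Pearson r over 0.9 across the 6 arrays. The closest 5 were TXNDC5 (r = 0.994), LPL (0.994), LOC100042427 (0.993), PUF60 (0.992) and GM6316 (0.9903). These coefficients describe 6 points from shared arrays, and the log2 changes of the 5 probes lay between 0.01 and 0.09.

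The other genes of the granule pathway were described from lists. The lists of granule content and processing, granule membrane and biogenesis, granule priming and release, and regulators held 7, 12, 10 and 6 genes detected on 3 or more arrays, and 0 of them were called in either direction. Their median log2 changes were 0.03, 0.11, 0.03 and -0.01.

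Among granule content and processing genes, 2 of 7 had an unadjusted p under 0.05, both with lower values at 4 h. Over all probes, 5.42% reached such a p, and the normalized values did not overlap for 11.6% of those detected on all arrays. For PCSK2, the prohormone convertase that makes glucagon in the pancreatic alpha cell, the normalized log2 intensity was 8.46 ± 0.34 at 4 h and 8.88 ± 0.10 at 16 h (SD, n = 3 each), without overlap (log2 change -0.41, adjusted p = 0.831). For PCSK1N, which encodes the inhibitor of PCSK1, it was 9.70 ± 0.31 and 10.07 ± 0.16, also without overlap (-0.37, adjusted p = 0.878). CPE, the carboxypeptidase that trims hormone intermediates, and QPCT, which forms N-terminal pyroglutamate, had log2 changes of 0.23 and 0.11 (adjusted p = 0.924 and 0.962). The probe of PCSK1, the convertase that releases GLP-1 from proglucagon, was detected on 1 array only.

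Among the genes of granule membrane and biogenesis, 2 of 12 had an unadjusted p under 0.05, both with higher values at 4 h, against the same 5.42% of all probes. STX6, a syntaxin of the trans-Golgi network and immature granule, had a log2 change of 0.22 without overlap (adjusted p = 0.889), and PICK1, a BAR domain protein that takes part in granule budding, one of 0.28 (adjusted p = 0.912). In the other direction VAMP4, a SNARE removed from maturing granules, had a change of -0.19 and HID1 (listed as C630004H02RIK), a trans-Golgi protein needed for granule maturation, one of -0.16 (adjusted p = 0.931 and 0.957). Of the 10 priming and release genes, 1 had an unadjusted p under 0.05 (5.42% of all probes). This was SYT9, a calcium sensor, which had a change of 0.19 (adjusted p = 0.915), SYT4 one of 0.11, CADPS2, a priming factor, one of -0.20 and UNC13A, another priming factor, one of -0.28 (adjusted p = 0.957, 0.946 and 0.919).

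Among the 6 regulators, 1 had an unadjusted p under 0.05 (5.42% of all probes). This was NEUROD1, a transcription factor of enteroendocrine cells, which had a log2 change of -0.35 (adjusted p = 0.7996) and INSM1, a neuroendocrine zinc finger factor, one of 0.21 (adjusted p = 0.920). PTBP1, an RNA-binding protein that stabilizes granule mRNAs, had a change of 0.02 and CREB1 one of -0.05 (adjusted p = 0.995 and 0.980). REST, the repressor of neuronal and granin genes outside neuroendocrine cells, was detected on no array. Of the 10 detected L-cell markers, 0 were called, 7 had a log2 change above 0 and 3 below 0. An unadjusted p under 0.05 was reached by 2 of those above 0 and 1 of those below 0, against the 5.42% of all probes. Above 0 these were Insl5 (log2 change 0.77, adjusted p = 0.369) and Gcg (0.35, adjusted p = 0.461), whose values did not overlap between 4 h and 16 h, as for 11.6% of the 14941 probes. Below 0, NEUROD1 is given above, and Abcc8, a subunit of the ATP-sensitive potassium channel, had a change of -0.17 (adjusted p = 0.946), both with overlapping values.

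The log2 change of each gene was followed through the other ways of processing the data. Quantile normalization, cyclic loess and linear scaling were compared with all arrays, an offset of 50 and no block. In these fits the change of SCG3 was between 0.31 and 0.34 and that of VGF between -0.25 and -0.22. Median scaling, which left a median change of 0.30 over the detected probes, and omission of normalization moved all 7 genes upward and turned the sign for CHGB and VGF.

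**Figure D5:**
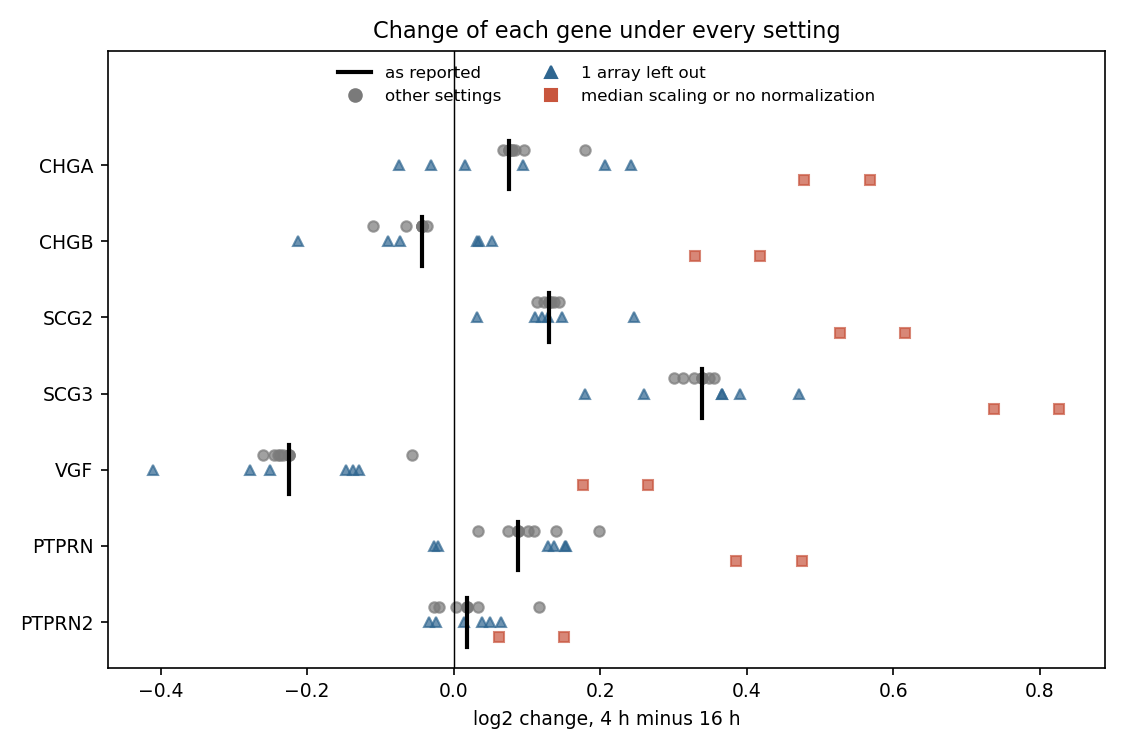
Log2 change (4 h minus 16 h) of each gene under every setting; the black line is the reported value, triangles leave out 1 array, squares are median scaling and no normalization between arrays, and circles are the remaining settings. SCG3 lies above 0 and, apart from the squares, VGF below 0 under every setting, whereas CHGA, CHGB, PTPRN and PTPRN2 fall on both sides of 0.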

How the data were processed

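Members and gene lists were chosen with earlier results of these data known. The deposited table holds 1 background-subtracted intensity per probe and array, which the authors did not normalize between arrays; the scanner software is not given in the sources used here. Detection p-values, slides and scan dates were not used. After normexp correction (offset 50), arrays were quantile normalized and log2 was taken. Time was fitted to all 45281 probes with limma 3.58.1 in R 4.3.3 (lmFit, eBayes; two-sided p adjusted by Benjamini-Hochberg, threshold 0.05). The number of arrays limits the precision. SCG3 was also compared by an exact permutation test.

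Array symbols were matched to RefSeq names, by synonym where needed (79.0% matched). A gene was represented by its brightest probe by mean normalized log2 intensity. All member probes are accounted for. From each other list, up to 2 genes per direction with the smallest p were named, among those detected on 3 or more arrays, and the 5 probes most correlated with the members' mean. Gcg, Pyy, PCSK1, REST and the synonym probes were named after their values were seen, and the 18S split, at the median, was likewise set with the data in view. Alternatives were other background corrections, normalizations, filters and variance models, blocks for replicate number and 18S, leaving out each array, and averaging the detected probes of a gene.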

Additional observations from a re-analysis of the deposited data

How the results depend on the processing

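No member gene was called under 15 of the 16 alternatives to the whole fit; with no normalization between arrays 2 member probes were called and 2308 of all probes. Against 4 probes called in all, median scaling gave 832, no background correction 29, cyclic loess 2, trend and robust variance 1, and an offset of 16, the filter at the noise limit and the replicate block 0 each. Leaving out any 1 array gave 0 called probes by limma, members included. An unadjusted p under 0.05 was then reached by 1849 to 3219 of all probes (2456 with all arrays). Among member probes it was reached by 0 to 2 (1 with all arrays).

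The sign of CHGB turned with median scaling (0.33) and no normalization (0.42), and leaving out single arrays gave -0.21 to 0.052. VGF turned with the same settings (0.18 and 0.27). Leaving out an array gave -0.41 to -0.13 for VGF. PTPRN2 turned with linear scaling (-0.027) and the 18S block (-0.020), with -0.034 to 0.065 when an array was left out. Leaving out an array gave -0.074 to 0.24 for CHGA and -0.027 to 0.15 for PTPRN. SCG2 and SCG3 kept their sign under every setting (0.03 to 0.62 and 0.18 to 0.83). Averaging the probes of a gene that were detected on 3 or more arrays gave 0.096 for CHGA, -0.058 for VGF and 0.033 for PTPRN. The 18S block gave 0.18 for CHGA, 0.20 for PTPRN, -0.065 for CHGB, -0.26 for VGF, 0.13 for SCG2 and 0.30 for SCG3. Why the values moved was not tested.

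The replicate numbers were checked for pairing, and deviations of same-numbered arrays correlated by 0.25, 0.17 and -0.49. These values differ in sign and rest on probes that share array-wide differences. They cannot decide whether the numbers pair the samples, which the labels do not say. With the replicate block 0 probes were called. Where an array was left out, its time point kept 2 arrays. The noise limit stands in for detection values, so the dim probes listed under PTPRN2, SCG2, VGF and PTPRN are bounded by it.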
